A study of Mus musculus with 170 samples.

Results

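The 10 genes described here carry out most of calcium handling in a heart muscle cell: Ryr2, Trdn, Jph2, Casq1, Casq2, Atp2a2, Pln, Sln, Cacna1c and Slc8a1. They were chosen by name, not by their values, and all 10 were found among the 40549 rows of the expression table. Single cells had been picked by hand from the ventricular part of mouse hearts at E9.5 (strain C57BL/6) and sequenced by Smart-seq2, which amplifies full-length cDNA, in 2 sequencing batches. Control embryos, labelled wild type, were homozygous for floxed Dgcr8 and carried the mTmG reporter (red before and green after Cre acts), but no Cre. Conditional knockout (cKO) embryos carried the same alleles together with Cre driven from the Mesp1 locus, which is active in the early mesoderm progenitors of the heart, so that Dgcr8 was deleted there and not in cardiomyocytes alone. Dgcr8 encodes the RNA-binding subunit of the microprocessor, which releases microRNA hairpins from primary transcripts. By the study's methods, cells whose reporter colour went against their genotype were left out of its comparisons, in either group. The number of embryos is not given in the sources used here.

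Each heartbeat is driven by a calcium cycle. L-type channels in the surface membrane let in a little calcium, which opens ryanodine receptors on the sarcoplasmic reticulum and releases a larger store, and relaxation follows when the pump SERCA2 returns calcium to the store and the sodium-calcium exchanger expels the rest. Phospholamban and sarcolipin are small membrane proteins that slow the pump, while calsequestrin, triadin and junctophilin organise the store and its junction with the surface membrane. In early embryonic hearts this store is still being built, and transmembrane calcium flux takes a larger share of the work than in the adult.

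The table held 143 cells, of which 74 were control (35 from batch 1, 39 from batch 2) and 69 were cKO (35 and 34). Clustering on 55 marker genes, none of them a calcium gene listed here, gave a cardiomyocyte-like (CM-like) cluster of 93 cells in which all 15 cardiomyocyte markers were higher than in the other cells. It held 28 control cells (18 in batch 1, 10 in batch 2) and 65 cKO cells (32 and 33). The other 46 control cells were 22 endothelial-like, 13 epicardial-like and 3 erythroid-like cells and 8 cells of an unnamed cluster led by mitochondrial transcripts. The labels name no embryo, so each genotype is 1 sample: no test was run, SDs describe scatter across cells, and every difference is a description of these libraries. For the targeted gene, Dgcr8, the CM-like cells averaged 2.65 ± 2.96 (control) and 1.71 ± 2.48 (cKO) on the log2(TPM + 1) scale, with 2.62 and 2.45 in batch 1 and 2.69 and 1.00 in batch 2. Xist (0.08 in control, 4.63 in cKO) and the Y-linked Ddx3y (3.07 and 0.07) divided the CM-like cells by genotype as well, so that genotype and embryo sex cannot be told apart in any comparison below. The median number of detected genes in CM-like cells was 8457 in control and 9877 in cKO of batch 1, and 9679 and 7786 in batch 2, an order that turned between the batches. Mitochondrial transcripts took a larger share of TPM in control than in cKO CM-like cells of either batch, with medians of 6.27% and 3.11% in batch 1 and 6.25% and 2.77% in batch 2.

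Levels are given as log2(TPM + 1), where TPM is already scaled to transcript length, so the genes can be set beside each other. In control CM-like cells the highest mean level was that of Casq1 (7.37), followed by Atp2a2 (6.68), Pln (5.94), Slc8a1 (5.18), Trdn (3.69), Cacna1c (3.58), Ryr2 (2.84) and Jph2 (2.30). Sln (0.23) and Casq2 (0.18) were close to 0. Neighbours in this order lay within 1 SD across cells of each other, apart from the step between Jph2 and Sln. The order in cKO CM-like cells began with Atp2a2 (8.15), Casq1 (6.39), Slc8a1 (6.25), Ryr2 (4.57) and Cacna1c (3.59), and Pln (2.88), Trdn (2.68) and Jph2 (2.62) came next. The cKO means from Cacna1c to Jph2 also lay within 1 SD across cells of each other. On this scale Pln had moved from the third to the sixth place and Ryr2 from the seventh to the fourth. By mean TPM the order differed. In control cells Pln (139.7) then lay just above Atp2a2 (137.4), and Ryr2 (8.60) below Jph2 (11.2). In cKO cells Pln (52.6) lay above Ryr2 (29.3) and Cacna1c (25.1).

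A gene was called higher or lower in cKO cells when the pooled difference of mean log2(TPM + 1) was at least 1 in size and had the same sign in both batches, among genes with TPM above 0 in more than 10 CM-like cells. By this rule Ryr2, Atp2a2 and Slc8a1 were called higher and Pln and Trdn lower, while Jph2, Casq1 and Cacna1c were called neither. Control cells were divided less evenly between the batches than cKO cells, and when the batches were weighted equally Slc8a1 (0.94) and Trdn (-0.99) lost their calls. With TPM rescaled without mitochondrial transcripts all 5 calls were kept and Casq1 was called lower as well. Casq2 and Sln did not pass the filter on low values, so 8 of the 10 genes could be called. Of all 15089 genes tested, 6.61% were called higher and 6.65% lower; among the 5893 genes that reached a TPM of 1 in at least 50% of CM-like cells, a set that holds those 8, the shares were 12.6% and 10.4%. The median difference over the 10 genes was -0.03, and over the 8 tested it was 0.16, beside a median of 0.04 (SD 0.72 across genes) over all genes tested. That median was 0.18 in batch 1 and -0.20 in batch 2. Among the 5893 genes it was 0.43 in batch 1 and -0.47 in batch 2. The within-batch values below are to be read against these medians rather than against 0. The 10 genes thus had no common direction.

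**Figure D1:**
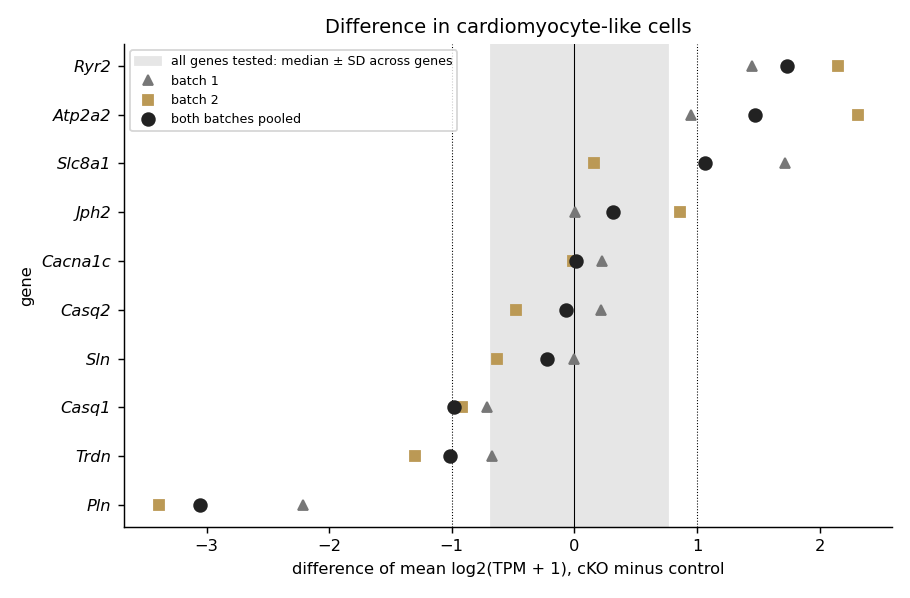
Difference of mean log2(TPM + 1), cKO minus control CM-like cells, for each of the 10 genes (circles: batches pooled; triangles: batch 1; squares: batch 2; grey band: median ± SD across all genes tested; dotted lines: the level of 1 used for calling). Ryr2 and Atp2a2 lie above 0.9 and Pln below -2 in each batch, while Slc8a1 is at 1.72 in batch 1 and at 0.16 in batch 2.

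To show where the genes that differed most start, the 250 bases before the transcription start are given for Pln, called lower, and Ryr2, called higher, and for the calsequestrins, of which one was abundant and the other nearly absent. The sequences are from RefSeq (GRCm38.p6), where 7 of the 10 genes had an entry, and run 5′ to 3′ on the gene's strand: chr10:53337436-53337685 (plus) for Pln, chr13:12106946-12107195 (minus) for Ryr2, chr1:172219896-172220145 (minus) for Casq1 and chr3:102086165-102086414 (plus) for Casq2. Capitals mark matches, on either strand, to the TATA element TATAAA, to the GATA factor core AGATAA, to the TEAD factor core CATTCC, to the CArG box or to the MEF2 consensus.
Pln: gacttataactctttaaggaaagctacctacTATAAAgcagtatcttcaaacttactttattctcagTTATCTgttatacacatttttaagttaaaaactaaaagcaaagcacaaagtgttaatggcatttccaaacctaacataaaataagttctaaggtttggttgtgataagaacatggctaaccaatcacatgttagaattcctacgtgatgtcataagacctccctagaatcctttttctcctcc
Ryr2: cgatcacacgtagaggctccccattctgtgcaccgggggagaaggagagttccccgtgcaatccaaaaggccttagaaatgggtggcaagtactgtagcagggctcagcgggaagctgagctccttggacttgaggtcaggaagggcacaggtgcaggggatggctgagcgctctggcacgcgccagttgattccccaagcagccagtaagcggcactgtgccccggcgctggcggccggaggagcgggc
Casq1: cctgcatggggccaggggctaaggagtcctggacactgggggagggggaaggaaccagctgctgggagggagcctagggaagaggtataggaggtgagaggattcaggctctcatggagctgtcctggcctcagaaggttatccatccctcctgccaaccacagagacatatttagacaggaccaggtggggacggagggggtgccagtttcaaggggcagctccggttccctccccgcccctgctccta
Casq2: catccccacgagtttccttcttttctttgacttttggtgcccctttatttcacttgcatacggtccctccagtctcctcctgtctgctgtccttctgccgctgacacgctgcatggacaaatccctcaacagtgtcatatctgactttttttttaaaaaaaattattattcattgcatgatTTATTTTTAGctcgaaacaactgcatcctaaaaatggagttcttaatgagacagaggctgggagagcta

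The Pln stretch had a GC content of 32.8%, against a median of 52.4% over the 32851 stretches in the reference, and only 2.92% of these were lower. The Pln stretch held TATAAA 219 to 214 bases before the start and AGATAA, on the opposite strand (TTATCT), 183 to 178 bases before it. Casq2 (41.6% GC) held a MEF2 match 69 to 60 bases before its start, which reads as a match on either strand. The Ryr2 (63.2% GC) and Casq1 (61.6%) stretches held none of the 5 motifs. Of all stretches of this length 12.4% held TATAAA, 9.99% AGATAA, 12.6% CATTCC, 1.47% a CArG box and 2.92% a MEF2 match. Such matches are letters in a window, not binding sites.

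Ryr2 (ENSMUSG00000021313.16, GRCm38 chromosome 13, 11553102 to 12106945, minus strand) encodes the ryanodine receptor of the heart, the channel through which the store empties. In control CM-like cells its level ran from 0.04 to 5.21 with a median of 3.46 in batch 1, and from 1.68 to 3.17 with a median of 2.64 in batch 2. In cKO cells it ran from 2.58 to 6.11 (median 4.39) in batch 1 and from 1.00 to 6.48 (median 5.09) in batch 2. The ranges overlapped in batch 1, where 29 of 32 cKO cells lay above the control median and 4 above the highest control cell. They were nearly separate in batch 2, where 30 of 33 cKO cells lay above every control cell. The mean was 2.84 ± 1.15 in control and 4.57 ± 1.08 in cKO cells, a difference of 1.74 (1.45 in batch 1 and 2.15 in batch 2), larger than the SD of either genotype. Ryr2 reached a TPM of at least 1 in 27 of 28 control and 64 of 65 cKO CM-like cells.

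Trdn (ENSMUSG00000019787.9, chromosome 10, 33080554 to 33476709, plus strand) encodes triadin, which ties calsequestrin to the ryanodine receptor. It went the other way from Ryr2. Control cells had medians of 3.67 (range 0.11 to 6.02) in batch 1 and 4.14 (1.56 to 5.08) in batch 2, against 3.56 (0 to 6.22) and 0.38 (0 to 7.51) in cKO cells. The cKO cells of batch 2 spread wider on either side: 18 of 33 lay below the lowest control cell and 6 above the highest. A TPM of 1 or more was seen in 92.9% of control cells (26 of 28, 95% CI 76.5 to 99.1) and 61.5% of cKO cells (40 of 65, CI 48.6 to 73.3). Within batch 1 that share was 88.9% and 75%, and within batch 2 it was 100% and 48.5%. The pooled difference of means was -1.02 (-0.67 and -1.30 in the batches), smaller than the SD across cells of 1.62 and 2.38. The mean TPM was 19.8 in control and 19.3 in cKO cells, a log2 ratio of -0.04.

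Set against its channel, Trdn minus Ryr2 averaged 0.86 in control and -1.90 in cKO CM-like cells. Such an average follows from the means of both genes and adds no evidence from single cells. Cell by cell, Trdn minus Ryr2 was above 0 in 19 of 28 control and 17 of 65 cKO cells. The averages were 0.76 and -1.36 in batch 1 and 1.03 and -2.42 in batch 2.

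Jph2 (ENSMUSG00000017817.11, chromosome 2, 163336242 to 163397993, minus strand) encodes junctophilin 2, which bridges the store to the surface membrane. Its median was 3.01 (range 0 to 6.62) in control and 3.28 (0 to 5.77) in cKO cells of batch 1, and 1.63 (0 to 3.51) and 3.37 (0 to 6.04) in batch 2. The ranges overlapped in batch 1 throughout, and in batch 2 15 of 33 cKO cells exceeded the highest control cell. The pooled difference was 0.32, with 0.003 in batch 1 and 0.86 in batch 2. Jph2 reached a TPM of 1 in 67.9% of control (95% CI 47.6 to 84.1) and 66.2% of cKO cells (53.4 to 77.4).

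Casq1 and Casq2 encode the calsequestrins, the calcium-binding proteins inside the store. Casq2 is known as the form of the adult heart and Casq1 as the form of skeletal muscle. In these E9.5 cells the transcript present was that of Casq1 (ENSMUSG00000007122.11, chromosome 1, 172209894 to 172219868, minus strand). Control medians were 7.99 (range 1.20 to 9.87) and 7.49 (0.49 to 9.31) in batches 1 and 2, and cKO medians were 8.01 (0.56 to 10.21) and 6.50 (0 to 10.12). Most cells of either genotype lay in the same range, and the cells at the bottom were mainly cKO cells: 7 of 33 in batch 2 were listed at 0, where no control cell was. The mean was 7.37 ± 2.38 in control and 6.39 ± 3.23 in cKO cells. The difference of -0.98 (-0.71 and -0.92 in the batches) just missed the level used for calling and was smaller than either SD. The lowest control cell, at 0.49, had only 3805 detected genes. Among cells with 7000 to 11000 detected genes the difference was -1.14 and was called lower, while with 4 clusters it was 0.02.

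Casq2 (ENSMUSG00000027861.13, chromosome 3, 102086415 to 102146514, plus strand) reached a TPM of 1 in a single control CM-like cell (1 of 28, 3.57%, 95% CI 0.0904 to 18.3) and a pair of cKO cells (2 of 65, 3.08%, CI 0.375 to 10.7). It was above 0 in 5 CM-like cells. The 3 cells that reached a TPM of 1 had levels of 4.79 (control, batch 2), 3.77 and 3.30 (cKO, batch 1), and their Casq1 levels were higher, at 9.31, 10.21 and 7.44. The Casq1 level exceeded that of Casq2 in 28 of 28 control and 58 of 65 cKO cells, and the remaining 7 cKO cells had both at 0.

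**Figure D2:**
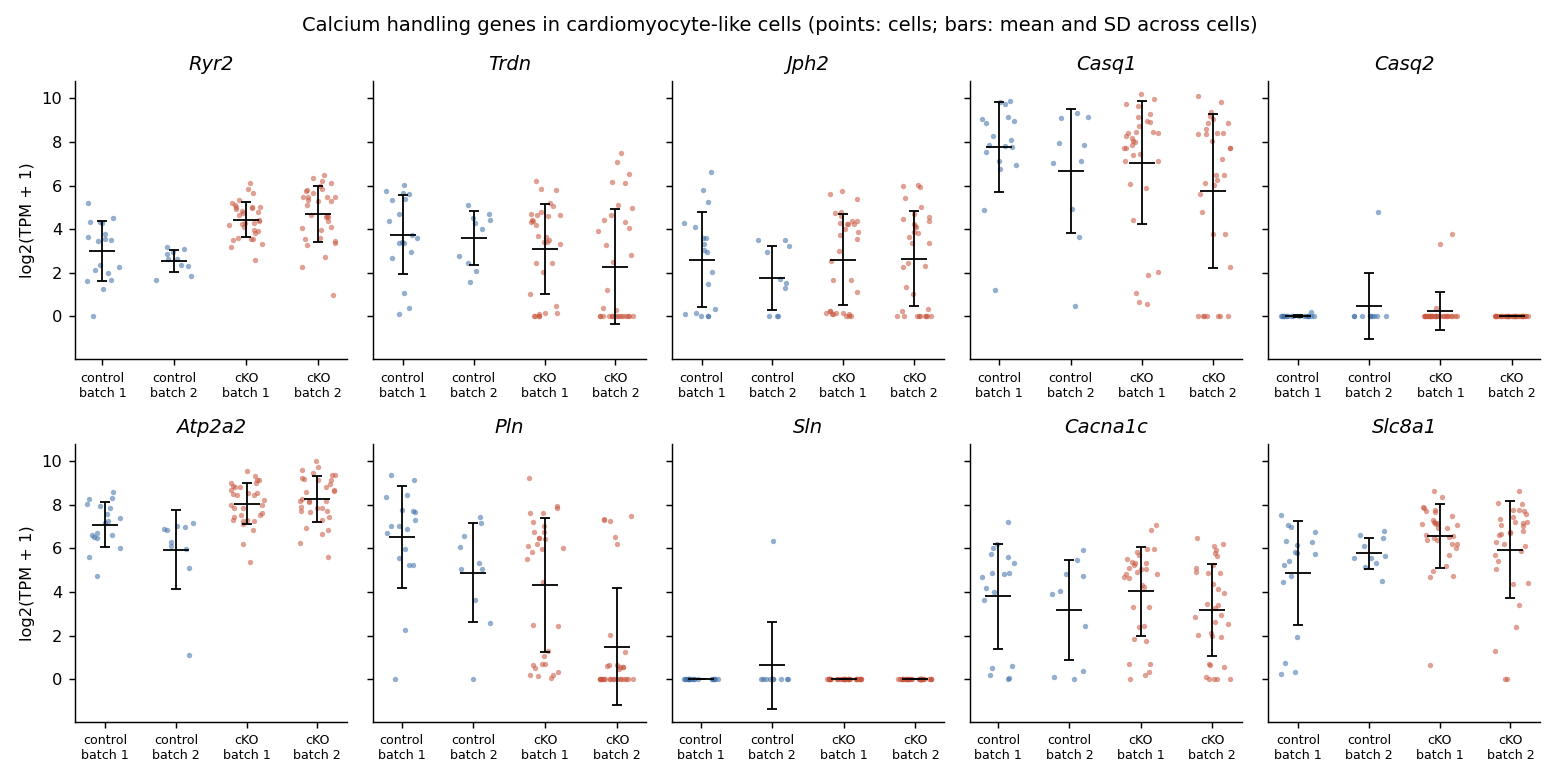
Level of each of the 10 genes, log2(TPM + 1), in single CM-like cells by genotype and batch (points: cells; black bars: mean and SD across cells; 18 and 10 control and 32 and 33 cKO cells). Ryr2 and Atp2a2 sit higher in cKO cells of either batch. Pln has a high and a near-zero set of cKO cells, and Trdn, Jph2 and Cacna1c also have cells near 0 in either genotype. Casq2 and Sln lie at 0 in nearly all cells.

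Atp2a2 (ENSMUSG00000029467.15, chromosome 5, 122453513 to 122502225, minus strand) encodes SERCA2, the pump that refills the store. Its level in control cells had a median of 7.18 (range 4.72 to 8.56) in batch 1 and 6.55 (1.09 to 7.14) in batch 2. In cKO cells the medians were 8.09 (5.37 to 9.54) and 8.19 (5.60 to 9.98). In batch 2, 28 of 33 cKO cells lay above the highest control cell, and in batch 1, 10 of 32 did. The mean was 6.68 ± 1.44 in control and 8.15 ± 1.00 in cKO cells, a difference of 1.47 (0.95 in batch 1, 2.31 in batch 2). The lowest control cell, at 1.09, had only 3805 detected genes. All 93 CM-like cells had a TPM of at least 1.

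Pln (ENSMUSG00000038583.13, chromosome 10, 53337667 to 53345987, plus strand) encodes phospholamban, the inhibitor of that pump, and showed the largest difference of the 10 genes in size. Control cells had medians of 7.02 (range 0 to 9.37) in batch 1 and 5.18 (0 to 7.45) in batch 2. The cKO medians were 5.89 (0.07 to 9.22) and 0 (0 to 7.47). The mean was 5.94 ± 2.41 in control and 2.88 ± 3.20 in cKO cells, a difference of -3.06 (-2.21 in batch 1 and -3.39 in batch 2). Only 0.0862% of the genes tested had a lower difference.

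The cKO cells did not shift together. In batch 1, 19 of 32 cKO cells had Pln at 4.45 to 9.22 and the other 13 at 0.07 to 2.49, with none between. In batch 2, 6 of 33 were at 6.19 to 7.47 and 27 at 0 to 2.03. Among control cells 16 of 18 were at 5.21 to 9.37 in batch 1 and 8 of 10 at 3.64 to 7.45 in batch 2, and 2 cells in each batch lay lower, at 2.56 or less. Those low control cells had 41.1% and 24.8% of TPM in mitochondrial transcripts in batch 1 (median 6.27%), and 6.49% and 8.10% in batch 2. The level of 3 that divides the high and low sets was chosen after the values were seen, and such a gap was sought for Pln only. Other genes also had cells near 0 beside cells well above it. Trdn was at 0 in 15 of 33 cKO cells of batch 2, with an upper quartile of 4.44. Jph2 was under a TPM of 1 in 22 of 65 cKO cells (upper quartile 4.36) and 9 of 28 control cells (3.52). Whether transcripts were missed in the cells near 0 was not tested. Pln reached a TPM of 1 in 92.9% of control cells (26 of 28, 95% CI 76.5 to 99.1) and in 47.7% of cKO cells (31 of 65, CI 35.1 to 60.5). For batch 1 the shares were 94.4% and 71.9%, and for batch 2 they were 90% and 24.2%. Among the control cells of other classes, which serve as background, the share was 28.3% (13 of 46), with 35.3% in batch 1 and 24.1% (CI 10.3 to 43.5) in batch 2. In batch 2 the share of cKO CM-like cells with Pln was thus close to that of cells of other classes. Close shares do not mean equal levels: the mean there was 1.49 ± 2.68 in cKO CM-like cells and 0.69 ± 1.59 in the other control cells. The highest of those other cells, counted in that mean, was at 7.89 and in the endothelial-like class. It also had Atp2a2 at 7.81, Casq1 at 6.92, Slc8a1 at 6.33, Ryr2 at 3.93 and Cacna1c at 3.18. Whether it was a doublet or wrongly classed was not tested.

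Pump and inhibitor thus differed in opposite directions. Pln minus Atp2a2 averaged -0.74 ± 2.61 in control and -5.26 ± 3.53 in cKO CM-like cells. These averages also follow from the means of both genes. Cell by cell, Pln minus Atp2a2 was above 0 in 12 of 28 control cells and in 3 of 65 cKO cells. For control cells this was 10 of 18 in batch 1 and 2 of 10 in batch 2. In batch 1 the averages were -0.56 and -3.72, and in batch 2 they were -1.06 and -6.75. Within a genotype and batch the levels of these genes hardly followed each other: Spearman's rho across cells was 0.14 and 0.05 in control and -0.23 and -0.17 in cKO cells of batches 1 and 2 (18, 10, 32 and 33 cells).

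**Figure D3:**
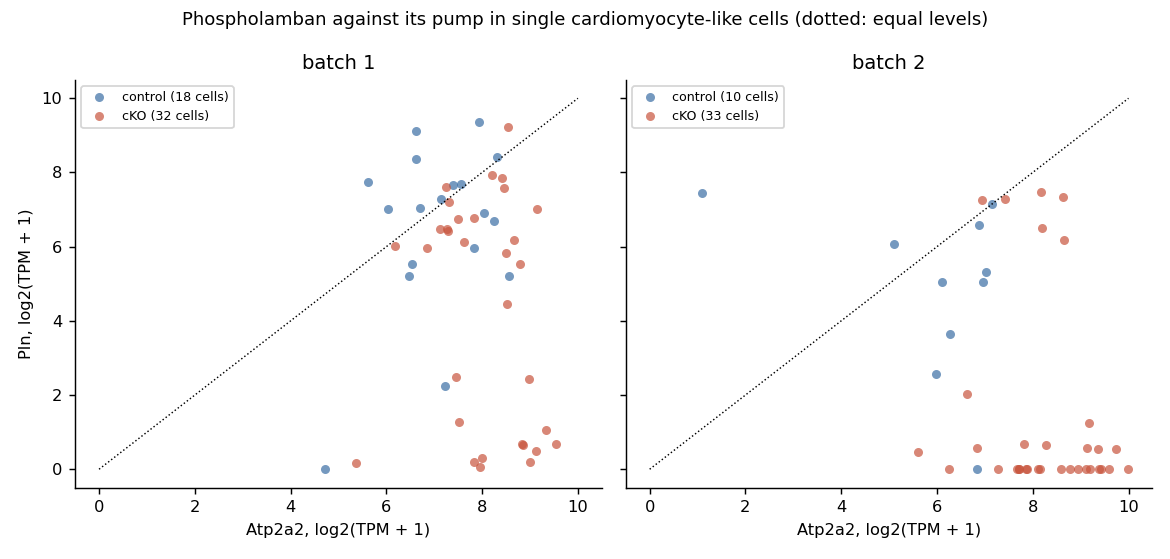
Level of Pln (vertical axis) against that of Atp2a2 (horizontal axis), both log2(TPM + 1), in single CM-like cells of batch 1 (left) and batch 2 (right); the dotted line marks equal levels. Control cells scatter about the line in batch 1, with 10 of 18 above it, and lie mostly below it in batch 2, with 2 of 10 above. Of the cKO cells 3 of 65 are above it, and a band of them lies near 0 on the Pln axis over the whole range of Atp2a2.

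Sln (ENSMUSG00000042045.6, chromosome 9, 53850164 to 53854560, plus strand) encodes sarcolipin, the relative of phospholamban that is known from atrial muscle. It was present in 1 of 143 cells, a control CM-like cell of batch 2 with a level of 6.34, and this was also the cell with the highest Casq2. The same cell had Pln at 5.31. No cKO CM-like cell had it (0 of 65, which allows a share of up to 4.62%), and none of the other 46 control cells did. No cell in which Pln was listed at 0 had Sln, but with Sln in 1 of 143 cells this could hardly have come out otherwise.

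Cacna1c (ENSMUSG00000051331.15, chromosome 6, 118587240 to 119196418, minus strand) encodes the pore of the L-type channel. The medians were 4.75 (range 0 to 7.20) in control and 4.83 (0 to 7.05) in cKO cells of batch 1, and 3.97 (0 to 5.92) and 3.26 (0 to 6.46) in batch 2. The ranges overlapped almost wholly, and the difference of means was 0.01 (0.22 and -0.01). It reached a TPM of 1 in 71.4% of control (95% CI 51.3 to 86.8) and 80% of cKO cells (68.2 to 88.9). Cacna1c minus Ryr2 averaged 0.74 in control and -0.99 in cKO cells. This follows from the means of both genes, and with Cacna1c at 0.01 it restates the difference of Ryr2.

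Slc8a1 (ENSMUSG00000054640.15, chromosome 17, 81373105 to 81738377, minus strand) encodes the sodium-calcium exchanger that moves calcium out of the cell. The control medians were 5.77 (range 0.22 to 7.52) and 5.61 (4.50 to 6.81), and those of cKO cells were 6.92 (0.63 to 8.63) and 6.68 (0 to 8.60). In batch 1, 26 of 32 cKO cells lay above the control median, and in batch 2, 24 of 33 did. The means told the batches apart: the difference was 1.72 in batch 1 and 0.16 in batch 2, where 7 of 33 cKO cells lay below the lowest control cell. Pooled, it was 1.06 (5.18 ± 1.99 in control, 6.25 ± 1.91 in cKO), smaller than either SD. In batch 1, 3 of 18 control cells had a TPM under 1, and in batch 2 none of 10 did.

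Ryr2, Atp2a2, Cacna1c and Slc8a1 belong to the longest of 4 equal classes of transcript length, in which 9.11% of genes were called higher and 2.74% lower. In the shortest class, which holds Casq1 and Sln, 5.34% were called higher and 10.5% lower. After the median of the gene's own length class was subtracted, Ryr2 was at 1.59, Atp2a2 at 1.33, Slc8a1 at 0.92, Trdn at -1.07 and Pln at -3.07, so Slc8a1 lost its call. The part of transcript length in these differences was not tested further.

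The CM-like cells of both genotypes also differed in summed marker levels. The summed TPM of the 15 cardiomyocyte markers had a median of 66913 in control and 92218 in cKO cells, with 1 marker called higher and 3 lower. The summed TPM of 13 endothelial markers had a median of 18.2 in control (range 1.82 to 267) and 57.5 in cKO cells (2.76 to 412), and that of 14 mesenchymal markers 88.6 (2.02 to 674) and 295 (3.82 to 1961). The sums of 6 epicardial markers (24.8 and 34.8) and of 7 erythroid markers (5.71 and 6.54) were closer. Marker by marker the differences were small, with medians of 0.28 (cardiomyocyte), -0.03 (endothelial), 0.07 (mesenchymal), 0.06 (epicardial) and -0.22 (erythroid). Cells with 3 or more endothelial markers at a TPM of at least 10 were 2 of 28 control and 5 of 65 cKO cells. For mesenchymal markers they were 4 of 28 and 17 of 65. Of the markers of other classes, 1 mesenchymal was called higher and 1 erythroid lower, and none of the endothelial or epicardial ones was called. Of all genes tested 6.61% were called higher and 6.65% lower. All endothelial and epicardial markers were above 0 in at least 1 CM-like cell of each genotype, while 1 mesenchymal marker was at 0 in every control cell, and 2 mesenchymal markers and 1 erythroid marker in every cKO cell. When the cells with 3 or more markers of another class at a TPM of at least 10 were left out, 19 control and 36 cKO cells remained, of which 2 were control cells of batch 2. Ryr2, Atp2a2 and Slc8a1 were then still called higher and Pln lower, while Trdn, at -0.66, was not called. Their part in the differences was not tested otherwise.

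Correlations within a genotype and batch describe how the genes kept company from cell to cell, in cells that share a sequencing batch. Ryr2 and Atp2a2 varied together among cKO cells, with Spearman's rho of 0.66 in batch 1 (32 cells) and 0.53 in batch 2 (33 cells). Among control cells rho was -0.07 (18 cells) and -0.04 (10 cells). Between Ryr2 and Pln rho was 0.01 and 0.001 in cKO cells and 0.44 and 0.04 in control cells. Ryr2 and Jph2 had a rho of 0.35 and 0.57 in cKO and 0.18 and 0.24 in control cells.

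For each of the 8 genes that reached a TPM of 1 in at least 50% of CM-like cells, the genes most like it were sought among 5892 others, by Spearman's rho over the 93 cells after each genotype and batch had been centred. Pln was most like Myl2 (rho 0.47) and Myh7 (0.45), which encode a ventricular myosin light chain and the slow myosin heavy chain, and then Rpl32 (0.40). Atp2a2 was most like Stt3b (0.62), Ckap4 (0.55) and Itga6 (0.51), of which the first pair encode proteins of the endoplasmic reticulum. Ryr2 came closest to Fcgr2b (0.55), Dsp (0.52), the gene of the desmosomal protein desmoplakin, and Gm13683 (0.51). Trdn came closest to Oxct1 (0.52), an enzyme of ketone body use, Atp5j2 (0.51), a subunit of ATP synthase, and Tnnt2 (0.51), cardiac troponin T. Jph2 was nearest to Tnnt2, Egln1 and Nexn, with rho of 0.49, 0.48 and 0.48. For Casq1 the list was Stard7 (0.55), Rassf5 (0.39) and Nebl (0.39), for Cacna1c it was 2410018L13Rik (0.48), Ccdc141 (0.46) and Rnaseh2a (0.44), and for Slc8a1 it was Ivns1abp (0.59), B2m (0.55) and Atp1b1 (0.52). Myl2, Myh7 and Tnnt2 were among the markers that had defined the CM-like cells.

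The other control cells served as background. Over the 10 genes, the median difference between control CM-like and other control cells was 2.81 (2.84 in batch 1, 2.45 in batch 2), and 8 of 10 genes were at least 1 higher in CM-like cells, where 10.5% of all genes tested were. Casq1 (5.75 higher), Pln (5.15) and Slc8a1 (4.44) stood out most, followed by Trdn (3.29), Cacna1c (3.16), Atp2a2 (2.46), Ryr2 (2.28) and Jph2 (1.98). Atp2a2 was the one widely shared gene, with means of 4.86 in endothelial-like and 4.45 in epicardial-like cells, and a TPM of at least 1 in 21 of 22 and 12 of 13 of them. Casq1 reached that level in 11 of 22 endothelial-like cells but at a mean of 1.65. Slc8a1 was detected in 5 of 13 epicardial-like cells, 38.5% (95% CI 13.9 to 68.4), and in 2 of 22 endothelial-like cells, 9.09% (1.12 to 29.2). Ryr2, Trdn, Jph2 and Cacna1c were each detected in at most 3 of 22 endothelial-like cells. The endothelial-like cell with Pln at 7.89 was counted for each of them and for Slc8a1. The median number of detected genes was 9304 in the endothelial-like, 9395 in the epicardial-like and 9309 in the control CM-like cells. By batch it was 10293, 9629.5 and 8457 in batch 1 and 8538, 8655 and 9679 in batch 2, so that the CM-like cells had the fewest in batch 1 and the most in batch 2 of these 3 classes.

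**Figure D4:**
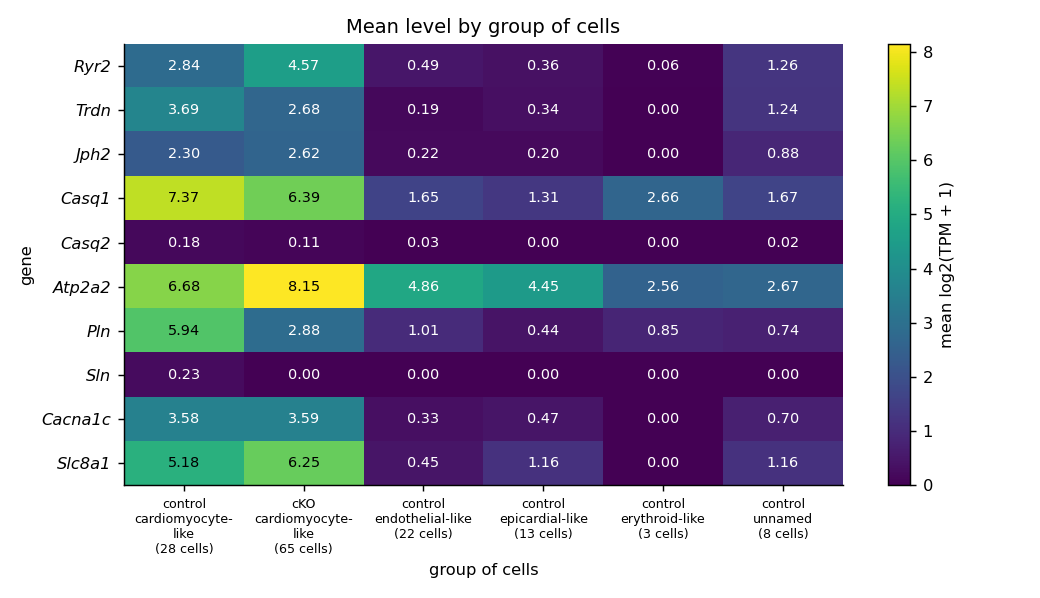
Mean level, log2(TPM + 1), of the 10 genes (rows) in CM-like cells of either genotype and in the other classes of control cells (columns; the number of cells is under each). Atp2a2 is high in every class with 13 or more cells, the other detected genes are concentrated in the CM-like columns, and Pln drops from 5.94 to 2.88 between the CM-like columns of control and cKO.

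Beyond the 10 genes, a list of 66 other calcium genes was read, of which 65 were in the table and 55 could be tested. In cKO CM-like cells 9 of the 55 were called higher (16.4%, where 6.61% of all genes were) and 2 lower (3.64%, against 6.65%), with a median difference of 0.33 (0.45 in batch 1 and 0.15 in batch 2). Of those called higher, the largest differences were those of Prkacb (1.89 to 3.69, a difference of 1.80), a catalytic subunit of protein kinase A, and Cacna2d2 (0.89 to 2.54, 1.64), an accessory subunit of voltage-gated calcium channels. Cacna1h (1.82 to 3.31, 1.49) encodes the pore of a T-type channel. Asph (4.58 to 6.01, 1.43) is the locus that also gives rise to junctin, a partner of triadin, and a value per gene does not separate its products. Ppp3cb (2.61 to 3.94, 1.33) encodes a catalytic subunit of calcineurin. From Prkacb to Ppp3cb, each difference was smaller than the SD across cKO cells (1.82 to 2.27). Batches 1 and 2 were close for Asph (1.38 and 1.31) and Ppp3cb (1.37 and 1.39). They lay further apart for Prkacb (2.01 and 1.23), Cacna1h (1.98 and 0.73) and Cacna2d2 (0.85 and 2.40). The other genes called higher, between 1.08 and 1.24, were Atp2b1 (1.05 and 1.40), Rcn1 (1.51 and 0.67), Calm2 (1.39 and 0.76) and Sri (1.60 and 0.56).

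Of the genes called lower, Cav3, which encodes the muscle form of caveolin, averaged 2.86 ± 3.39 in control against 0.16 ± 0.89 in cKO cells. It reached a TPM of 1 in 42.9% of control and 3.08% of cKO cells, with differences of -1.92 (batch 1) and -3.95 (batch 2). S100a1, a calcium sensor that binds the ryanodine receptor and the pump, went from 5.01 ± 3.05 to 3.56 ± 3.32 (-1.39 and -1.51 in the batches). By list, 2 of 10 surface channel genes, 2 of 13 junction partners, 1 of 7 pumps and exchangers, 3 of 13 sensors, kinases and phosphatases and 1 of 6 chaperones of the endoplasmic reticulum were called higher. The lists are small, and of all genes tested 6.61% were called higher. Of the 6 genes of mitochondrial calcium uptake that could be tested none was called in either direction, with a median of -0.18 (-0.06 in batch 1 and -1.09 in batch 2).

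**Figure D5:**
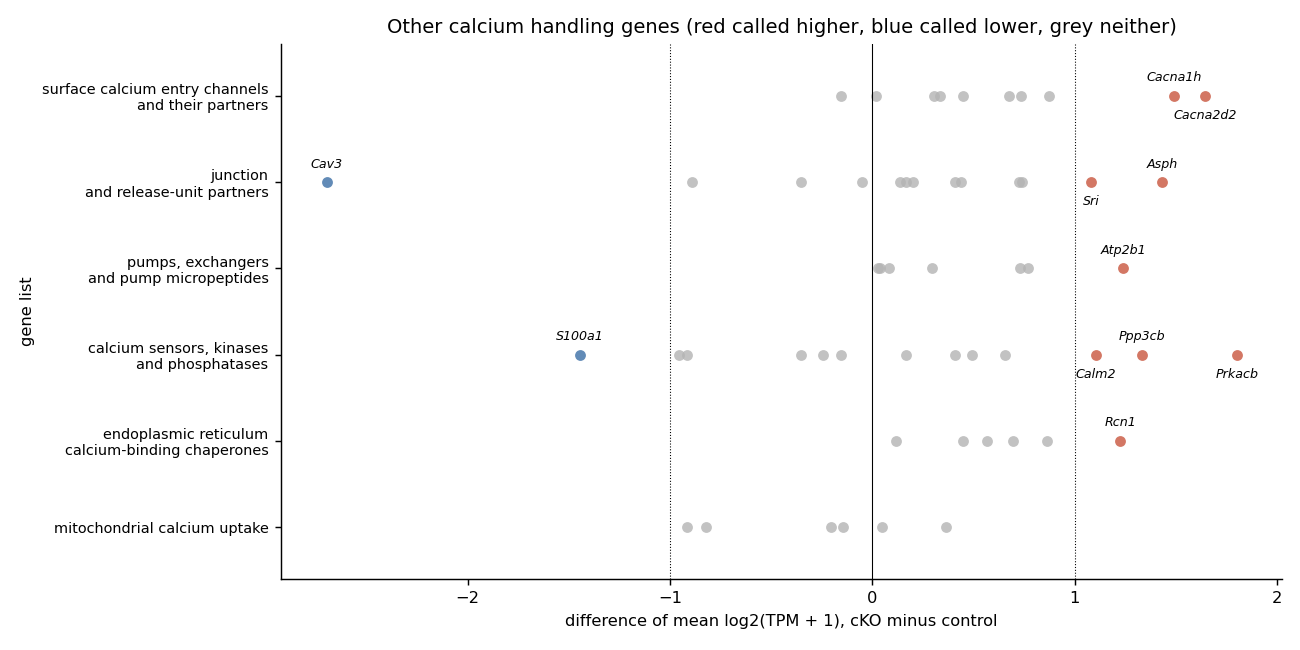
Difference of mean log2(TPM + 1), cKO minus control CM-like cells, for the 55 other calcium genes that could be tested, one row per list (red: called higher; blue: called lower; grey: neither; dotted lines: differences of 1 in size). Cav3 at -2.70 lies farthest from 0, and 9 genes are called higher against 2 lower, where 6.61% and 6.65% of all genes tested were.

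Salmon assigned reads without a stated use of strand, so reads may have been shared where the transcripts of different genes overlap. Overlap was read here from whole gene spans with their introns, and overlap of exons was not examined. By span, Pln lies across Cep85l on the opposite strand, Cacna1c across Dcp1b, and Trdn across 8 annotated genes, while Jph2 and Sln overlap none. Casq1 overlaps 1 annotated gene, Casq2 and Slc8a1 overlap 2 each, and Ryr2 and Atp2a2 overlap 3 each. The part of overlapping genes in the values was not tested.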

How the data were processed

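RNA of single E9.5 ventricle cells was measured by Smart-seq2. The deposited values are TPM, which the authors computed with Salmon against mm10 (version and annotation not given in the sources used here), keeping cells with a sufficient mapping rate. Each cell summed to between 996133 and 999999 TPM, so depth is unknown. The 143 columns were matched by title to the 170 labelled samples, and 27 samples were not analysed here. Titles give batch and genotype, not embryo.

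Differences of mean log2(TPM + 1), with a pseudocount of 1 that understates changes at low levels, were computed in Python 3.11.15 (pandas 2.3.3, scipy 1.17.1) and tested on simulated data. Detection means a TPM of at least 1, because batch 1 cells hold many more values between 0 and 1. Shares carry exact Clopper-Pearson 95% intervals, which cover the counting of cells only, and a share of 0 allows up to 3 cells.

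Cells were divided into 5 clusters (Ward linkage, log2 values scaled per marker). Each was named for the class of which the largest share of markers, and no fewer than 3, exceeded the remaining cells by 1 or more on the log2 scale and was detected in most of its cells. The classes were rebuilt and are not the study's annotation; hand-picked cells were not screened for doublets. The other calcium genes named are up to 5 called in each direction with the largest differences, and the genes most like each member are the 3 of highest rho. Atp2b1, Rcn1, Calm2 and Sri were named after their values were seen. Mcub and Mrln were read under older symbols. Coordinates are those of GRCm38, the build of mm10. The 10 genes, the lists and the alternatives were chosen with earlier results of these data known.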

Additional observations from a re-analysis of the deposited data

How the results depend on the processing

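No paired analysis was possible because no result comes from a test and the label numbers only name cells. Leaving out a replicate was likewise not possible with 1 sample per genotype. The direction and call of Ryr2 (1.00 to 2.15) and of Pln (-5.96 to -1.39) were kept in all 17 alternatives. One of the 17, that of 6 clusters, gave the same 28 control and 65 cKO cells as the main setting, so no call could change in it. Atp2a2 (0.95 to 2.31) lost its call in batch 1 alone, where it was 0.95. Slc8a1 (0.16 to 1.78) kept its call in 10 of 17, losing it among others in batch 2 alone and with the batches weighted equally, and Trdn (-1.96 to -0.04) in 10 of 17. Casq1 gained a call as lower in 6 of 17 and was at 0.02 with 4 clusters, which put the unnamed cells with the CM-like ones. Cacna1c kept its sign in 7 of 17, and none of its values was called. The subtraction by length class was not applied to Casq2 and Sln, and the median there is over the other 8 genes.

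Members called lower numbered 1 and not 2 with a pseudocount of 10, the log2 ratio of mean TPM, medians, 4 clusters, batch 1 alone, the mean of the within-batch differences, and without cells holding markers of another class, where the median member difference was 0.36. Of the other calcium genes, 15 were called higher and 5 lower with a pseudocount of 0.1 (11.2% and 12.4% of all genes), 2 and 1 with a pseudocount of 10 (1.91% and 1.58%), and 4 and 6 in cells with 5000 to 9000 genes at a TPM of at least 1 (5.01% and 12.6%). Those called lower were 1 with the log2 ratio (4.69% of all genes), 5 with medians (8.04%), 8 in batch 2 alone (21.5%) and 5 after subtracting the median of the length class (6.69%). The median difference between CM-like and other control cells was 4.59 with a pseudocount of 0.1, 1.29 with a pseudocount of 10, 3.26 with medians and 2.33 with 4 clusters. Over all genes tested, 997 were called higher and 1003 lower, and across alternatives these numbers ran from 288 to 2219 and from 239 to 3240, the last in batch 2 alone. The alternatives of single batches, length classes, values under 1 set to 0 and the 5000 to 9000 gene window were chosen after seeing the data. The cause was not tested for any of these changes. With unknown depth, a gene listed at 0 may be present below detection.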

Other observations

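The unnamed cluster held 4 cKO cells, which entered no comparison. Their Ryr2 levels were 4.51, 5.13, 0.46 and 1.27, and their Atp2a2 levels 7.53, 5.03, 3.02 and 2.43, with mitochondrial transcripts between 13% and 61.4% of TPM. Pln was at 1.38, 0.63, 0 and 0 in the same cells. One of them, the cell with Ryr2 at 0.46, had the highest Cacna1c level of all 143 cells, 10.78, beside 4462 detected genes and a Trdn level of 0.57. Among the 8 control cells of that cluster, 1 had Ryr2 at 4.42, Trdn at 5.33 and Cacna1c at 3.69 with Pln at 0.65.

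The number of genes with a TPM above 0 but under 1 differed between the batches and hardly between the genotypes. In CM-like cells its median was 2609 in control and 2625 in cKO cells of batch 1, and 1137 and 1058 in batch 2. Genes at a TPM of at least 1 had medians of 6054 and 7189 in batch 1 and 8547 and 6790 in batch 2.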
